A study of Mus musculus with 12 samples.

Results

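Müller glia are the radial glial cells of the retina, and 10 genes widely used as their markers were followed across whole-retina RNA and RNA from immunopurified rod ribosomes. The genes were chosen by name (Glul, Slc1a3, Aqp4, Vim, Apoe, Clu, Dkk3, Kcnj10, Gfap and Sox9) with earlier results of these data known, and all 10 were found among the 56748 gene rows of the table. The series holds 12 mouse libraries in 4 groups of 3: whole retina and rods from control mice (Het), and whole retina and rods from mice whose rods lack the tyrosine phosphatase Shp2, encoded by Ptpn11 (KO). All mice were 2 weeks old and carried RiboTag, a Cre-dependent HA tag on the ribosomal protein Rpl22, together with i75-Rod-Cre, which a rhodopsin promoter drives in rods. Controls were Shp2 fl/+ littermates that carry Cre as well, so they lack 1 Shp2 allele in rods and are not wild type, although their sample titles read wt. KO mice were Shp2 fl/fl. Because Cre is a rod Cre, neither the tag nor the deletion is directed to Müller glia, and the whole-retina libraries are the ones that sample these cells directly. The labels do not say how many mice went into a library, nor which libraries share a mouse, so p-values measure the spread between these libraries only.

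A Müller cell spans the whole thickness of the neural retina. Its processes wrap photoreceptors and neurons, and its endfeet line the vitreous surface and touch the blood vessels. The cell takes up glutamate, turns it into glutamine, moves potassium and water towards vessels and vitreous, and supplies neighbouring cells with lipid carriers. When the retina is injured these cells enter gliosis, a state best known for a rise of the intermediate filament protein Gfap, which retinal astrocytes also make.

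Promoter windows are shown for Gfap, the gliosis marker, and for Slc1a3 and Apoe, whose windows were the ones that held any of the letters searched. Each window is the run of 250 bases before a start site, taken from RefSeq on build GRCm38.p6. Windows were found for 6 of the 10 genes (Apoe, Gfap, Glul, Kcnj10, Slc1a3 and Vim, 8 windows in all), and Aqp4, Clu, Dkk3 and Sox9 had no entry. The letters searched on both strands were TTCNNNGAA for STAT factors, ACAAAG for SOX factors, TGANTCA for Fos and Jun, and TAATCC for CRX, the photoreceptor homeobox factor. Matches are in capitals, and the windows read 5′ to 3′ on the strand of the gene. Gfap (chr11:102897201-102897450, minus strand) held none of them, Slc1a3 (chr15:8710808-8711057, minus strand) held 1 STAT match, and Apoe (chr7:19699189-19699438, minus strand, the most upstream of 3 start sites) held 1 CRX and 1 SOX match, both on the opposite strand.
Gfap: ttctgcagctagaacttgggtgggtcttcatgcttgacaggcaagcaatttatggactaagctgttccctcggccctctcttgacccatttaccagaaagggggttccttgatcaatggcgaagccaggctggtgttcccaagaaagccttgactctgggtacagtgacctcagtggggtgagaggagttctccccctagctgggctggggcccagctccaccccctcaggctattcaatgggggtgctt
Slc1a3: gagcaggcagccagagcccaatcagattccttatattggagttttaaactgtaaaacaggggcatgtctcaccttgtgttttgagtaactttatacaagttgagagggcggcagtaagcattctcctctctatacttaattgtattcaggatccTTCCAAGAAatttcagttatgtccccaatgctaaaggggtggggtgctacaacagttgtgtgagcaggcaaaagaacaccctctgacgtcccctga
Apoe: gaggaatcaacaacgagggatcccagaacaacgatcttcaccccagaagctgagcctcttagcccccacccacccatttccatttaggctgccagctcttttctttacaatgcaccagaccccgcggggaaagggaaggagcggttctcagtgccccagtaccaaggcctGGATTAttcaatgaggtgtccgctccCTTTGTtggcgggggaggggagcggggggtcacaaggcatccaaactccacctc
The STAT letters occurred in 7.02% of the 32851 windows of this length in the table, the SOX letters in 16.5%, the Fos and Jun letters in 6.75% and the CRX letters in 6.25%. A match describes the letters and is not evidence of binding, and the absence of a match concerns these windows alone.

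Judged from the values, the deposited numbers are read counts scaled to nearly equal totals within each fraction, a step the authors do not state. These totals lay between 14525527 and 14527992 in retina and between 16263948 and 16265259 in rods. The estimated reads behind the deposited values ranged from 9980000 to 19220000 per retina library and from 11890000 to 25280000 per rod library. By the same estimate 3 reads correspond to a value between 1.93 and 4.37. Rod markers rose in rods in both genotypes (12 of 12 passed the test, median log2 fold change 1.79 in Het and 1.96 in KO). Among all genes tested, 21.4% in Het and 25.7% in KO were called higher in rods. Ptpn11 was listed at 2511, 2439 and 2431 in Het rods and at 1735, 2139 and 1971 in KO rods (log2 fold change −0.26 ± 0.09 SE, limma adjusted p = 0.0636), and at 2125 to 2512 in the 6 retina libraries. Lens markers made up between 0.0010% and 5.66% of the retina libraries and at most 0.0905% of the rod libraries. Because both fractions are bulk samples, fewer cells of a type and less RNA per cell cannot be told apart.

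All 10 genes were detected in every whole-retina library. On a scale comparable between genes (values scaled with the trimmed mean of M values, TMM, over the 12 libraries, per kilobase of transcript), Glul stood highest in Het retina at 8612 ± 1321 (SD, n = 3). Clu followed at 4473 ± 1682, Dkk3 at 3236 ± 719.7, Apoe at 1808 ± 822.8 and Vim at 1157 ± 687.9, and the libraries of each of these overlapped those of the next gene in the order. Slc1a3 (623.8 ± 45.3), Aqp4 (309.8 ± 29.5), Kcnj10 (258.0 ± 12.4), Gfap (69.4 ± 31.0) and Sox9 (22.6 ± 4.60) came after, and here each gene's libraries lay above those of the next. The order of the means was the same in KO retina, where Glul reached 7844 ± 1977 and Sox9 21.3 ± 1.18, but Glul then overlapped Clu, Aqp4 overlapped Kcnj10, and Vim no longer overlapped Slc1a3.

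**Figure D1:**
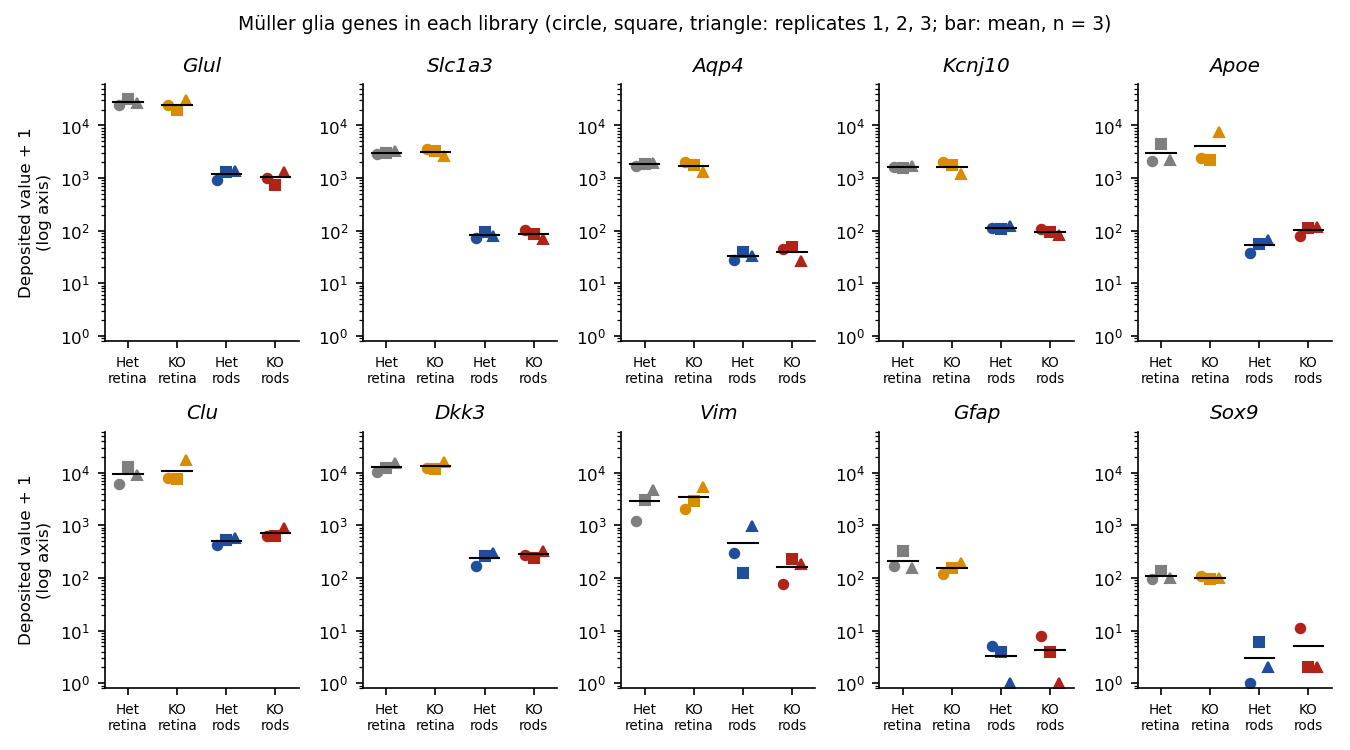
Deposited value plus 1 (log axis) of the 10 genes in each of the 12 libraries, with 3 libraries per group (circle, square and triangle for replicates 1, 2 and 3) and the group mean as a bar. All genes lie lower in rods than in retina, Gfap and Sox9 reach values of 0 to 10 in rods, and the 3 Vim libraries of a group lie far apart.

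The first comparison asked how much of the Müller glia signal is left once rod ribosomes are purified. In Het mice, rod RNA held far less of these transcripts than whole retina did. The 8 genes that passed the filter on low values (10 or more in at least 3 libraries of the comparison) in both fractions were all called lower, against 36.8% of the 16110 genes tested and 20.4% of the 11965 that reached the filter in each fraction by itself. A call here means an adjusted p below 0.05 with a log2 change beyond 0.5. Gfap and Sox9 were also called lower, but they passed the filter through the retina libraries alone and so had to differ. The median log2 fold change of the 8 genes was −4.62, beside 0.19 over the 11965 genes and −0.11 over all genes tested. Scaling by library total alone shifts the median of all genes by −0.40 and leaves all 10 lower.

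Among the genes for glutamate handling, Glul (glutamine synthetase, which turns glutamate into glutamine) was listed at 24112, 32427 and 27118 in Het retina and at 924, 1320 and 1380 in Het rods. The fold change was −4.29 ± 0.19 (log2, SE; limma adjusted p = 5.8e-07). Slc1a3, the glutamate transporter GLAST, stood at 2878, 2953 and 3201 in Het retina and at 71, 95 and 77 in Het rods, a log2 change of −4.95 ± 0.15 (adjusted p = 2.2e-07 by limma). In neither gene did the fractions come near each other.

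Both endfoot channels behaved alike in direction and differed in what was left. Aqp4, the water channel of the endfeet, was listed at 1667, 1822 and 1955 in Het retina and at 27, 39 and 32 in Het rods. Kcnj10, the potassium channel Kir4.1 that carries potassium buffering, was listed at 1605, 1571 and 1678 in Het retina and at 113, 105 and 120 in Het rods. With nearly equal retina values, the rods kept 2.40% of the retina level of Aqp4 and 9.31% of that of Kcnj10 after TMM scaling. The percentages of the 3 Het rod libraries did not overlap, at 1.99 to 2.86 for Aqp4 and 8.63 to 9.93 for Kcnj10, nor did those of the KO rods, at 1.95 to 3.68 and 6.63 to 8.81.

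The secreted proteins fell as well. Apoe, the lipid carrier of retinal glia and microglia, stood at 2141, 4519 and 2206 in Het retina and at 36, 56 and 65 in Het rods. Clu (clusterin, a secreted chaperone and lipid carrier) stood at 6012, 13032 and 9102 against 419, 532 and 572. Dkk3, a secreted relative of the Dickkopf Wnt inhibitors, stood at 10160, 12273 and 15316 against 166, 264 and 297. The Het rods kept 2.37% of the retina level of Apoe, 2.57% of that of Dkk3 and 7.23% of that of Clu, and their log2 changes were −5.47 ± 0.33, −5.46 ± 0.24 and −3.90 ± 0.28 (SE, n = 3 against 3). Each of these groups was fully apart from its counterpart.

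Of the intermediate filament genes, Gfap was all but gone from the rods and Vim fell least of the 10. Gfap was listed at 165, 324 and 151 in Het retina and at 4, 3 and 0 in Het rods, values at or near that of 3 reads, so that its fitted log2 change of −5.52 depends on the 2 added before the logarithm (from −6.47 to −4.22 over the alternative settings). Vim (vimentin, also made by lens, vascular and other mesenchymal cells) was listed at 1204, 2965 and 4606 in Het retina and at 303, 123 and 976 in Het rods. Its log2 change was −2.68 ± 0.88 with a limma adjusted p of 0.0405, the weakest of the 10, and after scaling the highest rod library overlapped the lowest retina library. The Vim call was lost without Het retina replicate 2 (log2 −2.54), Het retina replicate 3 (−2.14), Het rod replicate 1 (−2.59) or Het rod replicate 2 (−1.96), with adjusted p between 0.0658 and 0.1931. It was also lost with median-ratio scaling, without the filter and with the GC trend removed (adjusted p from 0.0660 to 0.1080), where the log2 change lay between −2.65 and −2.56. The glial fate factor Sox9 was listed at 94, 134 and 97 in Het retina and at 0, 5 and 1 in Het rods, again at about the value of 3 reads.

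KO mice gave the same picture. The 8 genes were called lower in KO rods than in KO retina, as were 36.5% of 16121 genes tested and 2389 of the 11969 that reached the filter in each fraction, and their median log2 change was −4.46 beside 0.29 over the 11969. Here too Gfap (119, 155 and 190 in retina, 7, 3 and 0 in rods) and Sox9 (106, 95 and 101 against 10, 1 and 1) passed the filter through retina alone. Dkk3 fell furthest, by 5.21 ± 0.18 on the log2 scale, from 12537, 11656 and 16142 to 272, 235 and 330. Clu fell least, by 3.48 ± 0.32, from 7947, 7500 and 17328 to 615, 621 and 887. Vim was listed at 2043, 2843 and 5327 in KO retina and at 75, 233 and 182 in KO rods, a log2 change of −4.03 ± 0.49 (limma adjusted p = 2.2e-04) with no overlap. The remaining genes lay between −5.03 (Aqp4) and −3.70 (Kcnj10). With Gfap and Sox9 set aside, the fractions were apart for 8 of 8 genes in KO and for 7 of 8 in Het, Vim being the exception. Among all genes tested 72.1% and 68.6% were apart, and among those that reached the filter in each fraction 66.7% and 61.8%.

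**Figure D2:**
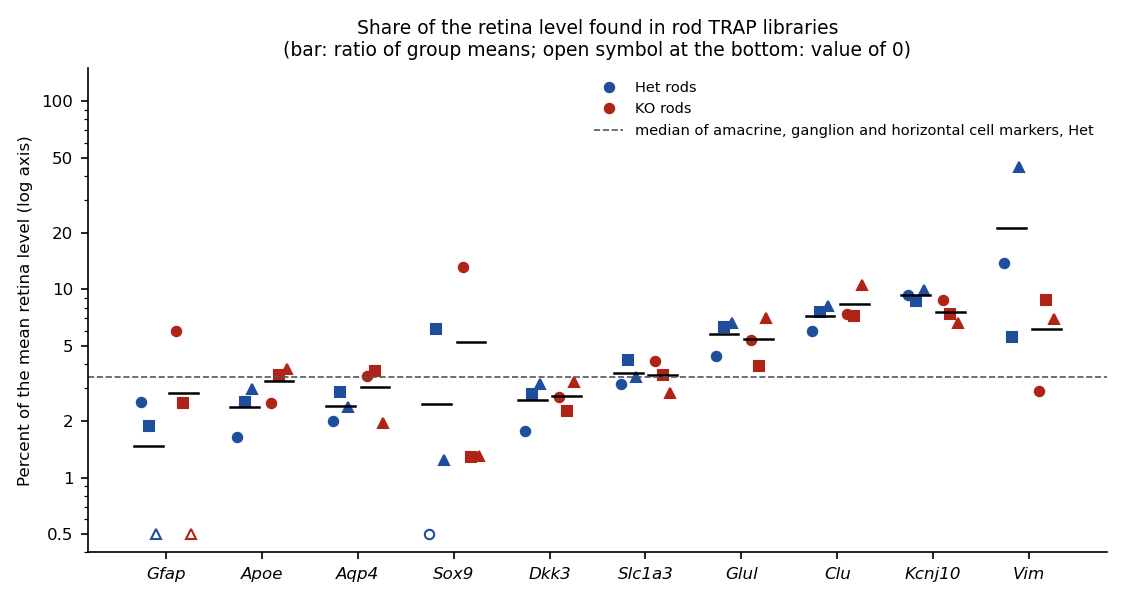
Level in each rod TRAP library as a percent of the mean whole-retina level of the same genotype after TMM scaling over 12 libraries (log axis), with symbols for replicates 1, 2 and 3, the ratio of group means as a bar and values of 0 as open symbols at the bottom. Slc1a3, Aqp4, Apoe and Dkk3 lie near the dashed line at 3.43%, the Het median of amacrine, ganglion and horizontal cell markers, while Kcnj10 (6.63% to 9.93%), Clu (5.98% to 10.6%) and Glul (3.89% to 7.01%) sit above it and Vim spreads from 2.90% to 44.4%.

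The share left in rods was read against markers of other cells that carry no rod Cre. Over the 10 genes the median share was 3.08% in Het and 4.39% in KO. These medians count Gfap (1.46% in Het, 2.83% in KO) and Sox9 (2.46% and 5.27%), which passed the filter through retina alone. In Het both lie below the median, so the median of the 8 other genes is higher there. In KO they lie on either side of it. Markers of amacrine, ganglion and horizontal cells with a mean of at least 50 in retina had medians of 3.43% and 3.59%, vascular markers 3.23% and 3.51%, and bipolar cell markers 3.50% and 4.40%. Markers of the retinal pigment epithelium stood higher, at 9.76% and 7.11%. Gfap, Apoe, Aqp4, Sox9 and Dkk3 lay below 3% in Het rods, and Slc1a3 stood at 3.59%. Apoe stood at 3.21% without Het retina replicate 2, and in KO it moved from 3.26% to 5.95% without KO retina replicate 3. The Sox9 libraries of Het rods ran from 0% to 6.14%, at or near the value of 3 reads. Glul (5.79% in Het, 5.44% in KO), Clu (7.23% and 8.41%) and Kcnj10 (9.31% and 7.60%) lay above the neuronal and vascular medians in both genotypes, while in Het all 3 lay below that of the pigment epithelium. Vim stood at 21.3% in Het and 6.19% in KO, but its Het libraries were at 13.8%, 5.56% and 44.4%, its KO libraries at 2.90%, 8.73% and 6.95%, and without Het rod replicate 3 the Het value was 9.68%. Without TMM, as plain shares of the library, all these percentages are lower, with medians of 2.06% and 2.96% over the 10 genes, Gfap and Sox9 included. No test was made of which genes exceed the others, and the part of carried-over RNA in any of these values was not tested.

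Genes that work alongside these markers did not all follow them. Most lists also hold members, which are counted again below. In the order of the lists these are Slc1a3 and Glul, Aqp4 and Kcnj10, Vim and Gfap, Apoe and Clu, Dkk3, and Sox9. Only the further Müller glia markers hold none. Of the lower glutamate genes, Slc7a11 alone is not a member. The counts of lower genes in each list are to be read against the 36.8% called lower among all genes. Of 7 genes for glutamate uptake and recycling, 6 were tested in Het mice and 3 were lower in rods, while Slc38a3, a glutamine transporter, was higher (log2 change 0.93 ± 0.24, limma adjusted p = 0.0084; 207% of its retina level), as were 21.4% of all genes. Slc1a2, the glutamate transporter GLT-1, was not called and stood at 149% of its retina level. Of 11 endfoot and dystrophin-complex genes, 7 were lower, 3 of them through retina alone, and 1 was higher, Dmd (dystrophin), with a log2 change of 0.61 ± 0.17. Of 5 intermediate filament genes 4 were lower, 2 of them through retina alone, and Synm (synemin) was higher by 0.85. Of 8 lipid genes 7 were tested, of which 5, Abca8a among them at 2.51% of its retina level, were lower (2 through retina alone) and 2 were higher. Of 7 genes of the secreted Wnt inhibitors 2 were tested, Dkk3 and Sfrp1, and both were lower, Sfrp1 through retina alone. Of 12 glial fate factors 11 were lower, but 9 of these, Nfia (3.13% left) among them, passed the filter through retina alone. That leaves Nfix (11.6%) and Nfib (9.21%) as the called factors measured in both fractions. Of 18 further Müller glia markers 17 were tested and 15 were lower, 5 of them through retina alone, with Rlbp1, the retinal carrier protein of the visual cycle, at 3.79%, whereas Itm2b and Car2 stood at 104% and 111% of their retina levels and were not called. Counted as plain shares of the library, the percentages of Slc38a3, Dmd and Synm stay above the retina level (138%, 113% and 136%), while those of Slc1a2, Itm2b and Car2 lie below it (99.7%, 69.5% and 73.9%).

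The next comparison asked whether Müller glia genes differ in whole retina when rods lack Shp2. None of the 10 passed the test, none had an unadjusted p below 0.05 and in none were the 3 KO libraries apart from the 3 Het libraries. Over all features 0% of 16863 genes were called, 140 genes (0.830%) had an unadjusted p below 0.05 in limma and 3.52% had groups that were apart. The median log2 change of the 10 genes was 0.04, with 4 negative and 6 positive values, beside −0.001 over all genes.

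Gfap, the gliosis marker, was listed at 165, 324 and 151 in Het retina and at 119, 155 and 190 in KO retina. Its highest library was a control, and the groups overlapped. The log2 change was −0.39 ± 0.34 (SE, limma adjusted p = 1.0), with a 95% interval from −1.18 to 0.40. Without Het retina replicate 2 the log2 change was −0.05, so the size of the difference rested on that library. An exact permutation test of 3 against 3 libraries cannot give a p below 0.1.

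Among the other markers, Glul stood at 24548, 19528 and 30627 in KO retina and Slc1a3 at 3624, 3294 and 2664. Their log2 changes against the Het values already given were −0.17 (95% interval −0.67 to 0.33) and 0.08 (−0.26 to 0.42). Aqp4 was listed at 2011, 1754 and 1307 and Kcnj10 at 2015, 1787 and 1169, with changes of −0.12 (−0.52 to 0.29) and 0.002 (−0.45 to 0.46). In both channels KO replicate 3 was the lowest of the 6 retina libraries, and KO replicate 1 was the highest for Kcnj10. Sox9 changed by −0.08 (−0.60 to 0.44) and Dkk3 by 0.11 (−0.40 to 0.61). The intervals were widest for Vim (log2 change 0.31, from −0.95 to 1.57), Apoe (2365, 2230 and 7550 in KO; 0.31, from −0.90 to 1.51) and Clu (0.18, from −0.76 to 1.12), for which a change of 1 on the log2 scale lies inside the interval. Other lists gave no calls either. Of 25 genes that respond in gliosis, Gfap and Vim among them, 21 were tested and 0 called, with log2 changes from −0.58 to 1.0 and a median of 0.15. Il6st and Stat3, the receptor subunit and the factor through which gliotic cytokines act, were at 0.10 and 0.08. None of 17 further Müller glia markers, 9 astrocyte markers or 12 microglial markers tested was called, with medians of 0.02, −0.12 and −0.01.

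**Figure D3:**
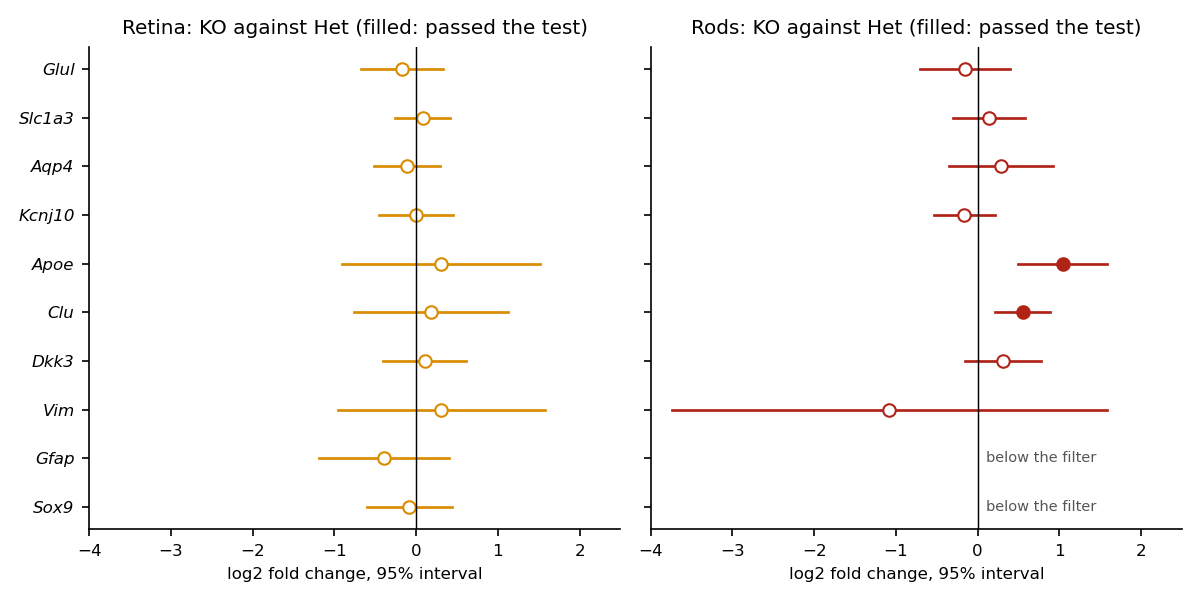
Log2 fold change of KO against Het with its 95% interval in whole retina (left) and in rods (right), with 3 against 3 libraries and filled points for genes that passed the test. No gene passed it in retina, Apoe and Clu did so in rods, and Gfap and Sox9 were below the filter in rods.

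The spread between retina libraries fell unevenly over the 10 genes. The highest library exceeded the lowest 4.72 times for Vim, 3.76 times for Apoe, 3.07 times for Clu and 2.80 times for Gfap. For the other 6 genes this ratio lay between 1.28 (Slc1a3) and 1.69 (Dkk3). Apoe was high in Het replicate 2 (4519) and KO replicate 3 (7550) and lay between 2141 and 2365 in the other 4 libraries, and Clu was highest in the same libraries, at 13032 and 17328. These are also the libraries in which genes of high GC content were raised most: the median log2 deviation of the top decile of genes by GC content exceeded that of the bottom decile by 0.86 and 0.90, beside −0.84 to 0.01 in the other 4. Apoe and Clu have the highest GC content of the 10 (59.5% and 55.6%), and Aqp4, the lowest at 41.4%, was lowest in KO replicate 3. In Het replicate 2, however, Aqp4 lay 0.07 above its log2 mean over the retina libraries. Gfap (55.5% GC), Glul (49.2%) and, narrowly, Sox9 (49.3%) were also highest in these libraries after scaling. With Het replicate 2 and KO replicate 3 left out, an alternative chosen after the data were seen, the log2 changes of KO against Het were 0.06 for Apoe, 0.04 for Clu and −0.23 for Gfap, and again no member was called. Vim was high in Het replicate 3 (4606) and KO replicate 3 (5327) and lowest in Het replicate 1 (1204). Lens markers took 1.52%, 5.66% and 0.0010% of those 3 libraries, but also 1.65% of Het replicate 2, where Vim stood at 2965. In the same 3 libraries, astrocyte markers, Gfap among them, took 0.0205%, 0.0224% and 0.00826%. The part of GC content, lens or astrocytes in these values was not tested.

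**Figure D4:**
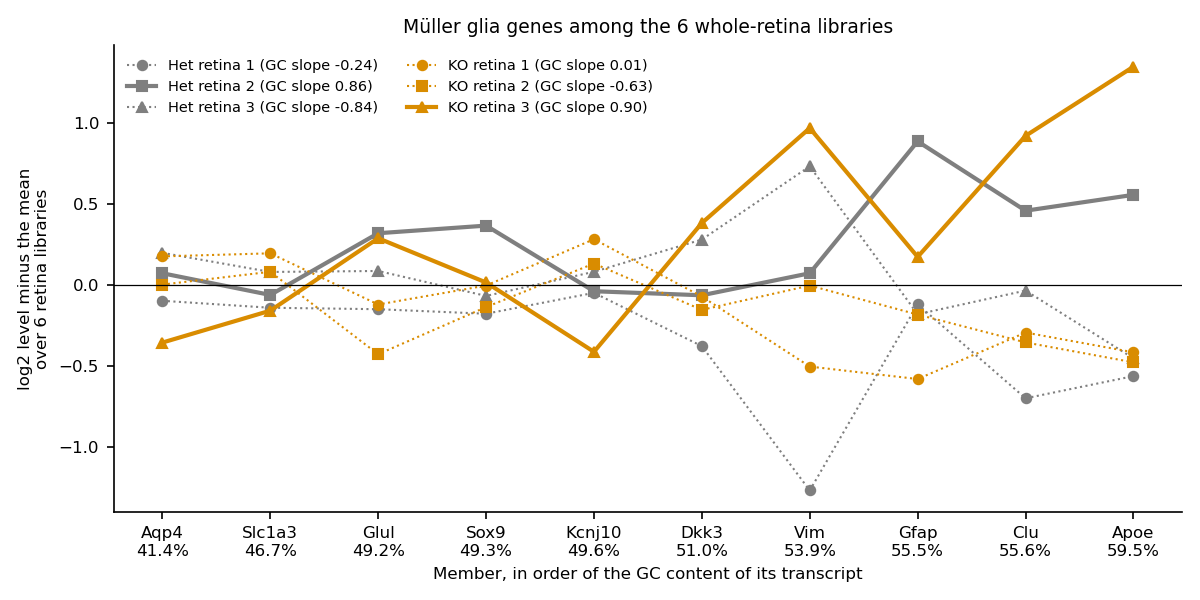
Log2 level of each gene in each of the 6 whole-retina libraries minus the mean over the 6, with the genes in order of the GC content of their transcripts and the GC slope of each library in the legend. Het retina 2 and KO retina 3, drawn as solid lines, lie above the other libraries for Gfap, Clu, Apoe, Glul and, narrowly, Sox9. KO retina 3 lies below all others for Aqp4, Slc1a3 and Kcnj10.

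In rods the same contrast showed 2 genes higher in KO among the residual Müller glia transcripts. The study's own comparison of rods left out genes depleted in rods. All 10 were called lower in rods here, Vim in Het only under part of the settings, but which of them the study left out is not stated. The values describe what remains in the rod fraction, and how much of it rods express was not tested. Gfap and Sox9 fell below the filter, 8 genes were tested and 2 were called, Apoe and Clu, both higher. In this comparison 13.1% of 13055 genes were called and 11.2% were called higher. Apoe was listed at 36, 56 and 65 in Het rods and at 77, 112 and 118 in KO rods, with no overlap, as for 44.0% of all genes. Its log2 change was 1.04 ± 0.25 (SE, limma adjusted p = 0.0126). Clu was listed at 419, 532 and 572 in Het rods and at 615, 621 and 887 in KO rods, also apart, with a change of 0.55 ± 0.15 (limma adjusted p = 0.0253). KO rod replicate 3 held the highest value of both genes. Microglia also make Apoe. Of 12 microglial markers, C1qc and Trem2 were at 0 in all Het rod libraries and Aif1 in all KO rod libraries, and the part of microglia in the Apoe values was not tested. Lens markers varied widely between the rod libraries of both groups. All 10 tested were positive (log2 change from 1.19 to 3.56, median 2.30) and 0 were called, their share being 0.000037%, 0.0194% and 0.0273% in the Het rod libraries and 0.0114%, 0.0225% and 0.0905% in the KO rod libraries, so the groups overlapped. KO rod replicate 3 was the highest for these too, and the part of lens RNA in the Apoe and Clu values was not tested.

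The 6 other genes tested were not called. Slc1a3 (100, 87 and 68 in KO rods), Aqp4 (44, 48 and 25) and Dkk3 (272, 235 and 330) had log2 changes of 0.14, 0.29 and 0.31, with 95% intervals of −0.30 to 0.58, −0.35 to 0.92 and −0.15 to 0.78. Glul (1015, 754 and 1332) and Kcnj10 (109, 94 and 83) both changed by −0.16, with intervals of −0.71 to 0.40 and −0.53 to 0.21. Vim changed by −1.08 ± 0.98, with an interval from −3.75 to 1.59 that allows either direction.

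GC content differed between the rod groups in step with both calls. The same GC contrast stood at −0.81, −0.23 and −0.42 in Het rods and at 0.42, 0.76 and 0.28 in KO rods, without overlap. Over all genes tested the median log2 change ran from −0.28 in the decile of genes with the lowest GC content to 0.69 in the highest decile, which holds Apoe, and it was 0.45 in the decile that holds Clu. With the GC trend removed from each library, Apoe changed by 0.31 (limma adjusted p = 0.4306) and Clu by 0.08 (adjusted p = 0.8373), and no member was called. Because Het and KO rods do not overlap in this GC contrast, GC content and genotype cannot be told apart here. The Apoe call held whichever library was left out (log2 change from 0.77 to 1.23, adjusted p at most 0.0489). The Clu call was lost without Het rod replicate 1 (0.39), Het rod replicate 2 (0.57) or KO rod replicate 3 (0.40).

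**Figure D5:**
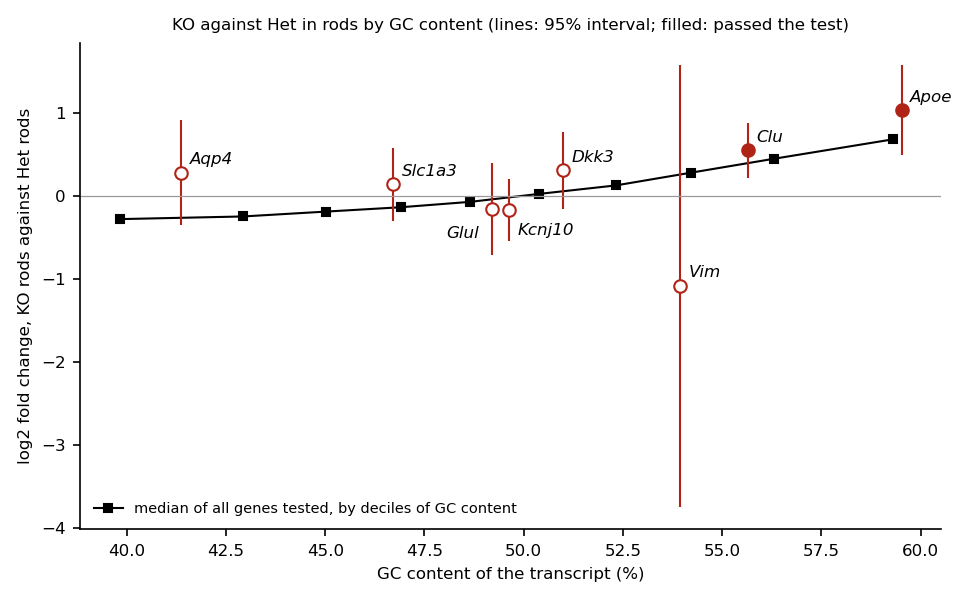
Log2 fold change of KO rods against Het rods, with 95% intervals, for the 8 genes tested against the GC content of their transcripts, with filled points for genes that passed the test and black squares for the median of all genes in each decile of GC content. The black line climbs from −0.28 to 0.69 along the axis, and Apoe and Clu, the filled points, sit at its high-GC end.

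Around these genes the rod fraction held few further calls. None of 14 further Müller glia markers, 8 gliosis genes (Vim among them) or 2 astrocyte markers tested was called. Slc7a11, the cystine and glutamate exchanger, was lower in KO rods (log2 change −1.45 ± 0.28, limma adjusted p = 0.0058), and Abca1, a lipid exporter, was lower by 0.75 (adjusted p = 0.0296), where 1.91% of all genes were called lower. Plec (plectin, 1.14) and Rax (a retinal homeobox factor, 1.14) were higher. In Het rods Plec stood at 17.1% and Slc7a11 at 28.9% of the retina level, Rax at 98.4% and Abca1 at 162%. From the marker lists of other cells, Pde6g (0.69) and Cngb1 (0.58), parts of the rod phosphodiesterase and channel, and Slc6a9 (0.72), a glycine transporter of amacrine cells, were higher. The GC content was 61.3% for Plec, 58.4% for Rax, 55.8% for Pde6g and 53.85% for Cngb1, which were higher. It was 40.7% for Slc7a11 and 47.5% for Abca1, which were lower. As for Apoe and Clu, GC content and genotype cannot be told apart for these calls.

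The last comparison set the KO effect in rods against that in retina, as an interaction term in 1 fit of the 12 libraries. None of the 10 genes passed, 0 had an unadjusted p below 0.05, and 0% of 17192 genes were called, with 604 genes (3.51%) at an unadjusted p below 0.05 in limma. The estimates ran from −1.49 ± 1.13 for Vim to 0.63 ± 0.63 for Apoe (log2, SE). The call of Apoe and Clu in rods and its absence in retina is therefore not a shown difference between the fractions.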

How the data were processed

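RNA was taken from whole retina before, and from rod ribosomes after, Translating Ribosome Affinity Purification (TRAP) of frozen, cycloheximide-perfused tissue, and 100 ng went into cDNA made with the Takara SMART-Seq V4 kit. The submitters' processing notes name CASAVA 1.8.2, HISAT2, DESeq2, edgeR and build GRCm39, without saying what each did. The deposited signal is read counts per gene that, judged from the values, the authors multiplied by 1 factor per library (between 0.644 and 1.46) and rounded, which they do not state. For Het retina replicate 3 an estimate of 0.994 does not show whether any scaling took place. A count model was therefore not used.

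Values were scaled with TMM factors within each comparison, raised by 2, put on the log2 scale and tested with limma 3.58.1 (trend and robust options, Benjamini-Hochberg over all genes tested) in R 4.3.3. Genes needed about 10 in at least 3 libraries and a sum of 15. A call needed an adjusted p below 0.05 and a log2 change beyond 0.5. The same code was run on simulated data with 200 genes changed by 1 on the log2 scale. It recovered 87% of them between Het rods and Het retina (16006 genes) and 90.5% between KO and Het rods (13027 genes). False calls were 2.79% and 3.21%. These percentages hold for the simulated data only, and recovery in the deposited libraries was not tested. Spread differed between genes there: in Het retina the SD ran from 5.11% of the mean for Kcnj10 to 59.8% for Vim. Levels between fractions and genes use TMM over all 12 libraries, with transcript length and GC content from GENCODE M21, which cover 98.3% or more of the genes tested. Intervals and floors cover the scatter of libraries or of counts only. Figures were drawn with matplotlib 3.10.9.

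The members and the 16 further gene lists were chosen with earlier results of these data known. Named from each list were the members, the 3 genes highest in Het retina where a result needed them, and the genes called between KO and Het, apart from some that are not reported here. Same-numbered Het rod and Het retina libraries deviated together (correlations across genes 0.47, 0.41 and 0.25, pairing by the numbers in the sample titles, while the labels name no shared mouse). The replicate block changed no call of a member in any comparison.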

Additional observations from a re-analysis of the deposited data

How the results depend on the processing

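Of 875 log2 fold changes recomputed for the members, 812 kept their direction and their side of the threshold. In KO rods against Het rods the 2 members called became 1 with scaling by library size, and 0 with limma without its trend and robust options, with the GC trend removed, with the replicate block and the GC trend removed together, and in 1 fit over all 12 libraries; leaving out single libraries gave 1 to 2. In those 4 settings Apoe changed by 1.04, 0.31, 0.31 and 0.96, with adjusted p values of 0.0566, 0.4306, 0.3402 and 0.2415. Over all genes the same comparison gave 1710 calls, 346 with the GC trend removed, 410 with the block as well, 922 without trend and robust options, 951 without Het rod replicate 1 and 0 in the 12-library fit. Library size alone moved the share of higher among called genes from 36.8% to 13.5% in Het rods against Het retina, from 41.3% to 12.5% in KO, and from 85.4% to 67.2% in KO rods against Het rods. The replicate block alone kept both calls in rods (adjusted p 0.0010 and 0.0011), and with 3 same-numbered pairs the Het and KO rods correlated by 0.18, 0.03 and 0.03, the Het and KO retina by 0.40, −0.58 and −0.14 and the KO fractions by 0.33, −0.01 and 0.18, so in these the libraries share a number only.

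Directions turned only for values that passed no test in either setting, and the cause was not tested. In KO against Het retina, Kcnj10 was −0.002 with library size alone, and Aqp4, Dkk3 and Sox9 were 0.038, −0.064 and 0.052 with Het retina 2 and KO retina 3 both left out. Leaving out single libraries there gave ranges of −0.36 to 0.01 for Glul, −0.24 to 0.03 for Aqp4, −0.25 to 0.75 for Vim, −0.30 to 0.66 for Apoe, −0.23 to 0.46 for Clu, −0.06 to 0.27 for Dkk3, −0.14 to 0.21 for Kcnj10 and −0.19 to 0.082 for Sox9, and in KO rods against Het rods −0.37 to 0.022 for Glul. In the interaction, Glul was 0.062 without the filter. Slc1a3 was 0.009 with median-ratio (RLE) scaling, 0.11 without the filter and 0.045 with the GC trend removed, with or without the block, and Clu −0.066 in both GC fits. Leave-one-out ranges of the interaction were −0.13 to 0.26 for Glul, −0.086 to 0.27 for Slc1a3, −0.007 to 0.42 for Dkk3 and −0.088 to 1.15 for Sox9. Depth limits Gfap and Sox9 in rods, where values of 0 to 10 stand at about the level of 3 reads.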
